A study of Mus musculus with 2 samples.

Results

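The cells described here carry the label of lung dendritic cells (DC) of the type-2 conventional kind (cDC2). They held transcripts of the lectin genes Mgl2, Cd209a or Clec10a and no C1q. They were picked from a droplet single-cell RNA sequencing study by measured values: a barcode that had reached 500 genes and 1000 UMIs, with no more than 10% of its UMIs from mitochondrial genes, was taken when its UMIs of Mgl2, Cd209a and Clec10a summed to at least 3 and when it held 0 UMIs of C1qa, C1qb and C1qc, 0 of Xcr1 and Clec9a, 0 of Ccr7 and Fscn1, and 0 of Mki67 and Top2a. A UMI is a tag that counts 1 captured transcript. The cells so chosen, called members in what follows, were 496 of the 12968 barcodes that passed the quality limits, out of 14710 deposited: 104 and 84 in adult pools 1 and 2, and 196 and 112 in neonatal pools 1 and 2. The label does not cover all of them equally: a minority of the adult members, described below, was rich in Lyz2 and poor in MHC class II and Mgl2. The adult mice were 8 weeks old and the neonatal mice 7 days old, and both carried zbtb46-cre and rosa26-yfp. In such mice Cre made from the Zbtb46 locus switches on YFP permanently, so that YFP marks cells that express Zbtb46 or descend from cells that did. Live CD45.2+ YFP+ lung cells were sorted, each pool was made from at least 5 mice and marked with its own hashtag, and the pools of 1 age were loaded together, so that n = 2 pools per age throughout. Age and loading channel cannot be told apart. Neither can sex: Y-linked UMIs without Xist were found in 53 and 51 adult and in 1 and 10 neonatal members, against Xist UMIs without Y-linked ones in 0 and 0 adult and 177 and 83 neonatal members.

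cDC2 take up antigen in peripheral tissue, carry it to lymph nodes and present it on MHC class II molecules to CD4+ T cells. In the lung they are known for priming type 2 helper and T follicular responses, whereas Xcr1+ cDC1 are known for presenting antigen to CD8+ T cells. Mgl2 and Clec10a encode galactose-type lectins that bind glycans with terminal galactose or N-acetylgalactosamine, and Cd209a encodes a mouse relative of the pathogen receptor DC-SIGN. C1q transcripts are typical of macrophages, which can share these lectins, and Ccr7 with Fscn1 marks DC that have matured and begun to migrate.

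The deposited gene UMIs came to 8993471 and 8172362 in the adult pools and to 20346024 and 19549992 in the neonatal pools. The members contributed 749735 and 649629 UMIs in the adult pools and 1214896 and 707610 in the neonatal pools, with median depths of 7403.5 and 7919.5 UMIs per adult member and 6443 and 6190.5 per neonatal member. Levels are given as CPM, a gene's UMIs scaled to a fixed total of the members' own UMIs in a pool. Between the ages 14 barcodes were shared, of which 0 were members, and 0 were shared between pools of 1 age. Scrublet called 0 and 2 of the adult and 6 and 2 of the neonatal members doublets. Nothing in the labels names mice within a pool, so the p-values measure the spread between pools.

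The members differed in which of the chosen lectins they held. The sum of the 3 lectins had a median of 22 and 24 UMIs in the members of the adult pools, up to 59 and 65, and of 15 and 16 UMIs in those of the neonatal pools, up to 45 and 55. Mgl2 was detected in 74.0% and 84.5% of adult members and in 88.3% and 88.4% of neonatal members. Clec10a was detected in 56.7% and 47.6% of adult members and in 69.4% and 72.3% of neonatal members, so that the pools of the ages did not overlap. All 3 lectins together were found in 37.5% and 31.0% of adult members and in 57.1% and 51.8% of neonatal members. These values chose the cells and are given without a test. Of the 946 barcodes with 3 or more lectin UMIs, 143 held C1q, 105 held Xcr1 or Clec9a, 82 held Ccr7 or Fscn1 and 212 held Mki67 or Top2a, with some barcodes counted more than once. Among barcodes that met every other condition, 31 had 2 lectin UMIs, just short of the limit, and 24 had 3, just past it. The barcodes with 2 UMIs held 5997 CPM of H2-Ab1, 115 CPM of Clec4b1 and 1088 CPM of the neutrophil gene S100a8, and those with 3 UMIs held 6647, 73.8 and 131 CPM of the same genes.

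Genes outside the rule were set beside the label of a cDC2. Clec4b1, a C-type lectin of DC at chr6:123049962-123071555 (GRCm38, plus strand), stood at 300.1 and 326 CPM in adult and at 184 and 191 CPM in neonatal members. In Xcr1 Clec9a cells, chosen with at least 3 UMIs of those genes and the other exclusions, it stood at 40.1 and 60.8 CPM in adult and at 1.86 and 2.16 CPM in neonatal pools. Every pool of members was thus above every pool of Xcr1 Clec9a cells. A comparison with that class cannot tell cDC2 from monocyte-derived cells, and the label was not tested against those. The 10 genes outside the rule that led the members most over all other kept barcodes were Clec4b1, Gfra2, Il1rl1, H2-DMb2, Cd209d, Slamf9, Dab2, Tnip3, Cd209c and Creb5. Irf4, Klf4 and Zeb2, transcription factors needed for cDC2 development or function, were detected in all pools of members, with Irf4 at 65.4 and 63.1 CPM in adult and 59.3 and 84.8 CPM in neonatal members and at 5.10 and 10.53 CPM in adult and 0.743 and 1.80 CPM in neonatal Xcr1 Clec9a cells. Zbtb46 itself stood at 41.3 and 44.6 CPM in adult and 53.5 and 59.4 CPM in neonatal members. Klf4 and Zeb2 are given by detection only. Of other listed cDC2 markers, Sirpa was held by 67 and 51 adult and 141 and 72 neonatal members. Il1r2 was held by 13 and 9 adult and 16 and 1 neonatal members, and Clec4a4 was at 0 UMIs in every pool. Esam, a marker of the Notch2-dependent cDC2 of spleen, was at 0 UMIs in every pool too. The plot of marker genes by class shows these levels.

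**Figure D1:**
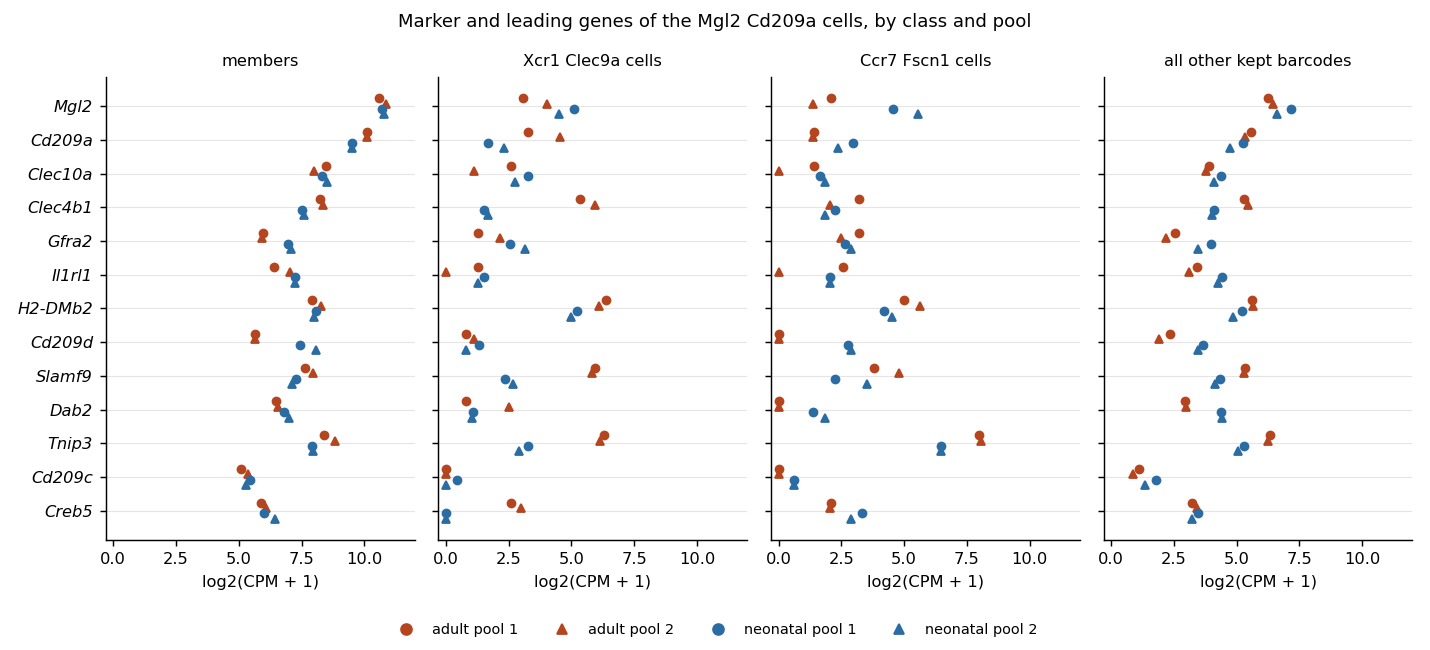
Level, as log2(CPM + 1), of the 3 lectin genes of the rule, Clec4b1 and the leading genes outside the rule, in each adult and neonatal pool, for the members, Xcr1 Clec9a cells, Ccr7 Fscn1 cells and all other kept barcodes; each point is 1 pool. The lectins chose the members, and the leading genes were ranked on members over all other kept barcodes. The separation is therefore a description, as in Clec4b1 with 300.1 and 326 CPM in adult members.

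Members made up 5.07% of the kept barcodes of adult pool 1 (exact Clopper-Pearson 95% interval 4.16% to 6.11%) and 4.50% of adult pool 2 (3.60% to 5.54%). They made up 4.34% of neonatal pool 1 (3.76% to 4.97%) and 2.47% of neonatal pool 2 (2.04% to 2.97%). The mean share was 4.78% ± 0.406 in adult and 3.41% ± 1.32 in neonatal pools (SD, n = 2 each), a difference of 1.38 percentage points with an exact two-sided permutation p of 0.333, the smallest p that 2 pools against 2 can give. Without neonatal pool 2 the difference came to 0.446 points and without neonatal pool 1 to 2.31 points. As a share of the members, Xcr1 Clec9a cells and Ccr7 Fscn1 cells together, which are chosen by the same kind of UMI limit, members were 28.2% and 29.4% in adult and 19.03% and 11.97% in neonatal pools. Both adult pools were above both neonatal pools by either count, the neonatal pools differed from each other by more than the adult ones, and no p below 0.333 was possible. Intervals cover counting error only.

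Between the ages, 676 of 6686 tested genes differed in the members (edgeR quasi-likelihood test, Benjamini-Hochberg adjusted p under 0.05), which is 10.1% of the genes tested. Adult members were higher in 451 of them (6.75%) and neonatal members in 225 (3.37%), and 181 and 100 of these changed at least 2-fold. The pools of the ages did not overlap in 54.9% of all tested genes and in 669 of the 676. The median log2 fold change over all tested genes was -0.002. The count depended on the neonatal pools: it was 357 without neonatal pool 1 and 349 without neonatal pool 2, and 249 by DESeq2's Wald test. Genes of the rule and mitochondrial genes were left out of the test. Counts of called genes in the lists below are to be read beside the shares over all tested genes, 6.75% and 3.37%. Folds below are adult over neonatal, with ± for the standard error of a log2 value.

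The mannose receptor gene Mrc1 (chr2:14229392-14332057, GRCm38, plus strand), whose product takes up mannosylated antigen and which is best known from macrophages, had the largest well-counted rise with age. It stood at 241 and 246 CPM in adult members, against 13.2 and 18.4 CPM in neonatal members, a log2 fold change of 4.14 ± 0.20 with an adjusted p of 2.7e-11 (edgeR). At least 1 Mrc1 UMI was found in 53.8% and 61.9% of adult members and in 5.10% and 8.04% of neonatal members, and in 0.602% and 0% of adult and 0% and 0.508% of neonatal Xcr1 Clec9a cells, where the counts of 0 allow shares of up to 2.86% and 0.771%. When each cell was thinned to 2000 UMIs the shares were 29.7% and 36.1% in adult and 2.56% and 0% in neonatal members, the 0 allowing up to 2.73%. Mrc1 was therefore spread over many adult members, with 56 and 52 adult and 10 and 9 neonatal members holding a UMI. Among members with an Mgl2 UMI the log2 fold change was 4.14 as well.

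Other genes with large rises in adult members were Klra17, a Ly49-family lectin-like receptor, with 70.7 and 49.3 CPM in adult and 6.58 and 8.48 CPM in neonatal members, and Cd81, a tetraspanin, with 94.7 and 157 CPM in adult and 18.9 and 14.1 CPM in neonatal members. Their log2 fold changes were 3.18 ± 0.34 and 3.00 ± 0.28. Hpgds, the haematopoietic prostaglandin D synthase, had 39 UMIs in the adult pools together and 2 in the neonatal pools together, a ratio of 26.8 after scaling to depth (exact 95% counting interval 6.94 to 229). Tnfsf13, which encodes the cytokine APRIL, Chd3, Cpq, Itga1, Crim1, Sirpb1c and Mgst1 completed the 12 largest rises together with Lyz1. Lyz1 had 76 UMIs in adult and 1 in neonatal members, but those 76 came from only 2 and 3 adult members, and its sequence is close to that of Lyz2, so that reads may be split between them. Of these 12, Lyz1, Tnfsf13, Sirpb1c and Mgst1 were too low for a test among members with an Mgl2 UMI.

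Neonatal members were marked by genes that adult members nearly lacked. Adra2a (chr19:54044151-54048982, GRCm38, plus strand), the alpha-2A adrenergic receptor, stood at 1.33 and 3.08 CPM in adult members, against 125 and 113 CPM in neonatal members. These were 3 adult and 232 neonatal UMIs, so that the level was 56.3 times higher in neonatal members (95% counting interval 19.02 to 275), and 0.962% and 2.38% of adult members against 43.4% and 41.1% of neonatal members held a UMI. In Xcr1 Clec9a cells, 0% and 0% of adult cells, which allows up to 1.81% and 2.86%, and 0.257% and 0.254% of neonatal cells did. Adra2a was thus found in a large minority of the neonatal members and in very few cells of the other class.

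Cdh1, which encodes the adhesion molecule E-cadherin, had 3 UMIs in adult and 110 in neonatal members, a level 26.7 times higher in neonatal members (8.90 to 131). Nes, the intermediate filament nestin, stood at 2.67 and 3.08 CPM in adult, against 56.8 and 59.4 CPM in neonatal members (log2 fold change -4.12 ± 0.42, adjusted p 9.1e-07, edgeR). Igf2bp3, an RNA-binding protein of fetal tissue, stood at 4.00 and 3.08 CPM in adult, against 43.6 and 45.2 CPM in neonatal members (-3.43 ± 0.44, adjusted p 1.8e-05). These 3 genes were low in both adult pools, and Nes and Igf2bp3 were close in both neonatal pools, where Cdh1 stood at 46.1 and 76.3 CPM. Cstdc4, Igflr1, Socs2 and Erc2 were at 0 UMIs in adult members and were at least 30.8-fold, 11.4-fold, 10.9-fold and 9.46-fold lower there than in neonatal members, taking 3 UMIs over the adult pools as the limit. Cstdc4 belongs to a cluster of near-identical stefin A genes, and the markers of neutrophils summed to 179 and 149 CPM in adult and to 363 and 1266 CPM in neonatal members, with none of the 14 neutrophil markers at 0 in every pool; their part in that gene was not tested. Enah, Hemk1, Trip6 and the short-chain fatty acid receptor gene Ffar2 were the others of the 12.

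**Figure D2:**
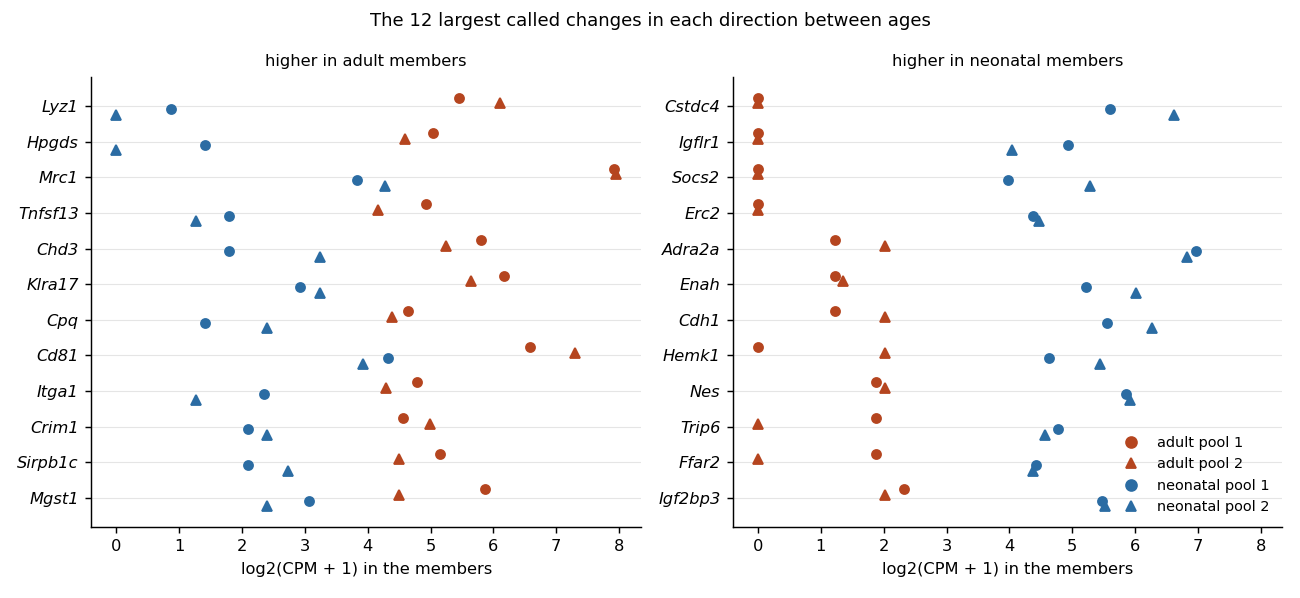
Level in the members, as log2(CPM + 1), of the 12 genes that were most raised in adult members (left) and in neonatal members (right) among called genes that reached 20 CPM on average at 1 age; each point is 1 pool, adult before neonatal in the legend. The pools of the ages do not overlap in any of the 24 genes, as the rule for choosing them requires, and 4 of the neonatal genes are at 0 in both adult pools.

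Many transcripts of the MHC class II presentation pathway were higher in adult members. Of 15 tested genes of this pathway, 9 rose in adult members and 0 in neonatal members, with a median log2 fold change of 0.59 against -0.002 over all tested genes. The class II chains H2-Aa and H2-Eb1 stood at 12258 and 13171 CPM and at 12248 and 13602 CPM in adult members, against 7829 and 7452 CPM and 7183 and 7209 CPM in neonatal members. Both genes had all adult pools above all neonatal pools, with log2 fold changes of 0.88 ± 0.04 and 0.99 ± 0.05. Cd74, the invariant chain that guards the peptide groove, stood at 34143 and 37240 CPM in adult, against 24205 and 24074 CPM in neonatal members. H2-Ab1 differed by 0.77 and Ctss, the protease that trims the invariant chain, by 0.59 on the log2 scale. H2-Ob, part of the H2-O complex that restrains peptide loading, differed most, with 81.4 and 97.0 CPM in adult and 43.6 and 29.7 CPM in neonatal members (1.37). Ciita, the master activator of class II transcription, stood at 259 and 231 CPM in adult and 241 and 271 CPM in neonatal members, with a log2 fold change of 0.09 and an adjusted p of 0.76 (edgeR).

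The genes of H2-DM, which loads peptide onto class II, were not alike. H2-DMb1 stood at 840 and 879 CPM in adult, against 574 and 554 CPM in neonatal members (0.75 ± 0.08, adjusted p 1.9e-06, edgeR). Its near-identical neighbour H2-DMb2 stood at 239 and 313 CPM in adult and 268 and 257 CPM in neonatal members (0.21 ± 0.13, adjusted p 0.39, edgeR). H2-DMb2 was among the genes that led the members over all other kept barcodes. Reads may be split between these neighbours. The 250 bases before the start of 4 class II genes are shown, from RefSeq on GRCm38.p6 and on the strand of the gene. Their part in the age differences was not tested. Capitals mark the Y box core, GATTGG on either strand (written CCAATC where it lies on the other strand), and an X box stretch, TGATGNTGC on either strand, both known from class II promoters; the motifs did not overlap. The regions are chr17:34287824-34288073 on the minus strand for H2-Aa, and chr17:34305617-34305866, chr17:34152941-34153190 and chr17:34144999-34145248 on the plus strand for H2-Eb1, H2-DMb1 and H2-DMb2.
H2-Aa: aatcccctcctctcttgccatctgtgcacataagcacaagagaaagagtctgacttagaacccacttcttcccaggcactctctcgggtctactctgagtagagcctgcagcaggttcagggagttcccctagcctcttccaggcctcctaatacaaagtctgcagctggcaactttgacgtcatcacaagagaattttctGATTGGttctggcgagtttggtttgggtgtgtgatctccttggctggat
H2-Eb1: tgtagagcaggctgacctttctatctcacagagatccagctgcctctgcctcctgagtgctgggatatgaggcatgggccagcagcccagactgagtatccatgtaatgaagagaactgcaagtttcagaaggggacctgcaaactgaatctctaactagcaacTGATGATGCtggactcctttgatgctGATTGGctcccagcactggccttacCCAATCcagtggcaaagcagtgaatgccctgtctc
H2-DMb1: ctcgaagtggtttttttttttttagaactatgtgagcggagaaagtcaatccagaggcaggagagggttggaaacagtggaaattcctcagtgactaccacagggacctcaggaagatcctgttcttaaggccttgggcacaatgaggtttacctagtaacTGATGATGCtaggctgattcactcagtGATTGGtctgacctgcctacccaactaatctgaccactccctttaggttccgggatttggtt
H2-DMb2: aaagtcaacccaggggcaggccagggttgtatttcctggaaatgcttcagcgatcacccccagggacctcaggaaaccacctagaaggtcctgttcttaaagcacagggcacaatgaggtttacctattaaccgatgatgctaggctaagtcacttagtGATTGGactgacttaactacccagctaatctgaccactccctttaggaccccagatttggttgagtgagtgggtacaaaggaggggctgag
The Y box core lay 49 bases before the start of H2-Aa, 60 before that of H2-Eb1, 62 before that of H2-DMb1 and 91 before that of H2-DMb2, and H2-Eb1 had another on the opposite strand at 35. The X box stretch began 86 and 89 bases before the starts of H2-Eb1 and H2-DMb1, and these exact letters were not in the windows of H2-Aa and H2-DMb2. The H2-DMb2 window held cgatgatgc, which differs from the stretch only in its first base, and H2-Aa rose in adult members without the stretch. Of 9 upstream sequences of 8 class II genes, 8 held the Y box core and 3 the X box stretch, against 14.6% and 0.761% of all 32851 upstream sequences of that length. The letters of the X box stretch were taken from such promoters, so these counts are a description.

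Among C-type lectins and Fc receptors, 6 of 16 tested genes rose in adult and 2 in neonatal members, with a median log2 fold change of 0.04. Beside Mrc1, Clec4b1 rose in adult members (0.89 ± 0.12, adjusted p 4.3e-05, edgeR), and Clec12a, an inhibitory receptor for uric acid crystals, stood at 252 and 172 CPM in adult and 70.0 and 63.6 CPM in neonatal members. Klrd1, the CD94 chain of NK receptors, stood at 244 and 217 CPM in adult and 113 and 112 CPM in neonatal members. Cd302 and Fcer1g, the shared signalling chain of Fc receptors, were the others that rose. Cd209d and Clec4n moved the other way. Cd209d, a relative of Cd209a at chr8:3871824-3878555 (GRCm38, minus strand), stood at 49.4 and 49.3 CPM in adult, against 172 and 266 CPM in neonatal members (-1.97 ± 0.22, adjusted p 5.4e-06). Clec4n, which encodes the fungal glycan receptor Dectin-2, stood at 10.7 and 9.24 CPM in adult, against 68.3 and 89.0 CPM in neonatal members. Other genes of the Cd209 family had other values: Cd209a, a gene of the rule given without a test, stood at 1094 and 1098 CPM in adult and 722 and 718 CPM in neonatal members, and Cd209c at 33.3 and 40.02 CPM in adult and 42.8 and 38.2 CPM in neonatal members. The remaining lectins of the rule overlapped between ages, Mgl2 with 1533 and 1881 CPM in adult and 1651 and 1740 CPM in neonatal members, and Clec10a with 354 and 256 CPM in adult and 319 and 362 CPM in neonatal members.

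The share of members with a Clec4b1 UMI was 71.2% and 82.1% in adult and 62.2% and 58.9% in neonatal pools. When each member was thinned to 2000 UMIs it was 46.5% and 37.4% in adult and 30.3% and 34.5% in neonatal pools, a difference of 9.54 points with an exact two-sided permutation p of 0.333. In Xcr1 Clec9a cells thinned alike it was 7.98% and 9.90% in adult and 0.257% and 0.254% in neonatal pools.

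Sensors and signalling genes were raised in adult members in smaller numbers. The shares over all tested genes were 6.75% higher in adult and 3.37% higher in neonatal members. Of 10 tested pattern recognition genes, 4 rose in adult and 0 in neonatal members: Cd14, the lipopolysaccharide co-receptor, with 41.4 and 69.3 CPM in adult and 11.5 and 31.1 CPM in neonatal members, Ly86, Cd180 and Cd36. The calls of Cd14, Cd180 and Cd36 were lost or turned in 3, 4 and 5 other settings. Among NF-kB subunits and feedback genes 5 of 18 rose in adult and 0 in neonatal members. These were Nfkbia, the inhibitor that NF-kB induces, Nfkbiz, Tnip3, Traf1 and Ier5. Tnip3, an inhibitor of NF-kB signalling, was also among the genes that led the members over all other kept barcodes. It stood at 339 and 456 CPM in adult and 242 and 249 CPM in neonatal members. Costimulatory ligands showed 2 of 9 higher in adult members, Cd86 and Cd48, calls that were lost or turned in 8 and 6 of the other settings tried, that of Cd48 also among members with an Mgl2 UMI. Of 13 inhibitory and regulatory genes 4 rose in adult members, among them Vsir, which encodes the checkpoint ligand VISTA, with 152 and 125 CPM in adult and 87.2 and 62.2 CPM in neonatal members. Aldh1a2, the retinoic acid-producing enzyme, and Socs2 were the 2 of that list higher in neonatal members, Aldh1a2 with 12.004 and 23.1 CPM in adult and 37.9 and 52.3 CPM in neonatal members. Socs2 had no call among members with an Mgl2 UMI.

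Cytokine and chemokine genes that passed the test all rose in adult members, 2 of 10 and 5 of 12. Over all tested genes 6.75% rose in adult and 3.37% in neonatal members. Il1b stood at 284 and 343 CPM in adult and 132 and 192 CPM in neonatal members (1.13 ± 0.16, adjusted p 1.1e-04, edgeR), but among members with an Mgl2 UMI its adjusted p was 0.53. Cxcl16 stood at 136 and 122 CPM in adult and 47.7 and 59.3 CPM in neonatal members and kept its call there, as did Ccl6 and Ccl9, while Ccl3 lost it and Cxcl10 was too low to test. Ccl17, a chemokine that draws Ccr4+ T cells, stood at 463 and 1250 CPM in adult and 1567 and 3195 CPM in neonatal members, and pools of 1 age differed so much that the adjusted p was 0.54. Ccl24, an eosinophil chemokine, was at 0 in adult and at 30.5 and 215 CPM in neonatal members, with an adjusted p of 0.64 (edgeR). Its UMIs came from only 1 and 7 neonatal members. Among receptors for chemokines and lipid mediators 4 of 9 rose in adult and 0 in neonatal members. They were Cx3cr1, the fractalkine receptor, with 124 and 69.3 CPM in adult and 25.5 and 9.89 CPM in neonatal members, Ccr2, Ccr1 and the leukotriene B4 receptor gene Ltb4r1. The calls of Ltb4r1 and Ccr1 were lost or turned in 6 and 3 other settings.

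Genes tied to type 2 responses did not move in 1 direction: 2 of 18 rose in adult and 2 in neonatal members, with a median of -0.04. Crlf2, the TSLP receptor chain, and Ramp1, a co-receptor for the neuropeptide CGRP with 232 and 220 CPM in adult and 122 and 94.7 CPM in neonatal members, were higher in adult members, although Crlf2 (0.48, adjusted p 0.045, edgeR) lost its call in 9 other settings. Ramp3, which pairs with the same receptor to bind adrenomedullin, was higher in neonatal members, with 1.33 and 6.16 CPM in adult and 23.0 and 49.5 CPM in neonatal members, as was the ribonuclease gene Ear2. Il1rl1, the IL-33 receptor, stood at 84.0 and 129 CPM in adult and 152 and 148 CPM in neonatal members (-0.36, adjusted p 0.25). Of 31 cDC2 development genes 4 rose in adult members, namely Tcf4, Cebpa, Nr4a1 and Nr4a2, and 1 in neonatal members, Id2 (-0.40, adjusted p 0.036). Over all genes tested 6.75% and 3.37% were called in these directions, and Tcf4 and Cebpa lost their calls in 6 and 5 other settings. Irf4, Klf4, Zeb2 and Zbtb46 did not pass the test.

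Immediate early genes, which respond to signals within minutes and also to tissue dissociation, formed the list with the most calls upward by count. By share of the genes tested, MHC class II was higher, with 9 of 15. Over all tested genes 6.75% rose in adult and 3.37% in neonatal members. Of 37 immediate early genes tested, 15 rose in adult and 2 in neonatal members, with a median of 0.53. Fos stood at 1569 and 1325 CPM in adult and 598 and 458 CPM in neonatal members, Junb at 1785 and 1853 CPM in adult and 1008 and 927 CPM in neonatal members, and Btg2 at 1412 and 1258 CPM in adult and 563 and 519 CPM in neonatal members. The neonatal genes of the list were the chaperones Hspa5 and Dnaja1. Adult and neonatal lungs were processed in separate channels, and the part of dissociation in these genes was not tested. Txnip, an inhibitor of thioredoxin and of glucose uptake, led the 3 of 11 glucocorticoid-responsive genes that rose in adult members, with 383 and 368 CPM in adult and 92.2 and 103 CPM in neonatal members (2.10 ± 0.13, adjusted p 7.8e-10, edgeR).

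Of 24 lysosome and antigen processing genes 10 rose in adult and 1, Psap, in neonatal members. Npc2, which binds cholesterol in lysosomes, stood at 758 and 664 CPM in adult and 438 and 387 CPM in neonatal members, and Ctsh and Cst3 rose too. Of 20 lipid handling and cholesterol genes 5 rose in adult and 0 in neonatal members, among them the scavenger receptor gene Cd36 and the cholesterol synthesis genes Hmgcs1 and Fdps. Among members with an Mgl2 UMI 3 of 19 did, and Hmgcs1 and Fdps were no longer called. Of 26 interferon-stimulated genes 7 rose in adult members, such as Isg15 with 50.7 and 50.8 CPM in adult and 13.2 and 21.2 CPM in neonatal members, while Gbp2 and Gbp7 rose in neonatal members. Among members with an Mgl2 UMI 5 of 21 tested genes of the list rose in adult and 4 in neonatal members. Over all members 6.75% of all tested genes rose in adult and 3.37% in neonatal members.

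Transcripts of oxidative phosphorylation genes moved the other way. Of 65 tested nuclear genes of the respiratory chain and ATP synthase, 0 rose in adult and 20 in neonatal members, with a median log2 fold change of -0.26. Cox6c stood at 364 and 342 CPM in adult and 542 and 584 CPM in neonatal members, and Atp5g3 at 135 and 168 CPM in adult and 276 and 288 CPM in neonatal members (-0.52 ± 0.10 and -0.75 ± 0.14). Among 3 fetal and growth genes tested, Igf2bp3 and Arid3a were higher in neonatal members. In the list of S100, annexin and galectin genes, 6 of 25 rose in adult and 4 in neonatal members. Over all tested genes these shares were 6.75% and 3.37%. Lgals1, which encodes galectin-1, stood at 408 and 477 CPM in adult and 1181 and 1112 CPM in neonatal members, whereas Lgals3 stood at 1304 and 1193 CPM in adult and 1092 and 912 CPM in neonatal members. The plot of all 19 lists shows each tested gene.

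**Figure D3:**
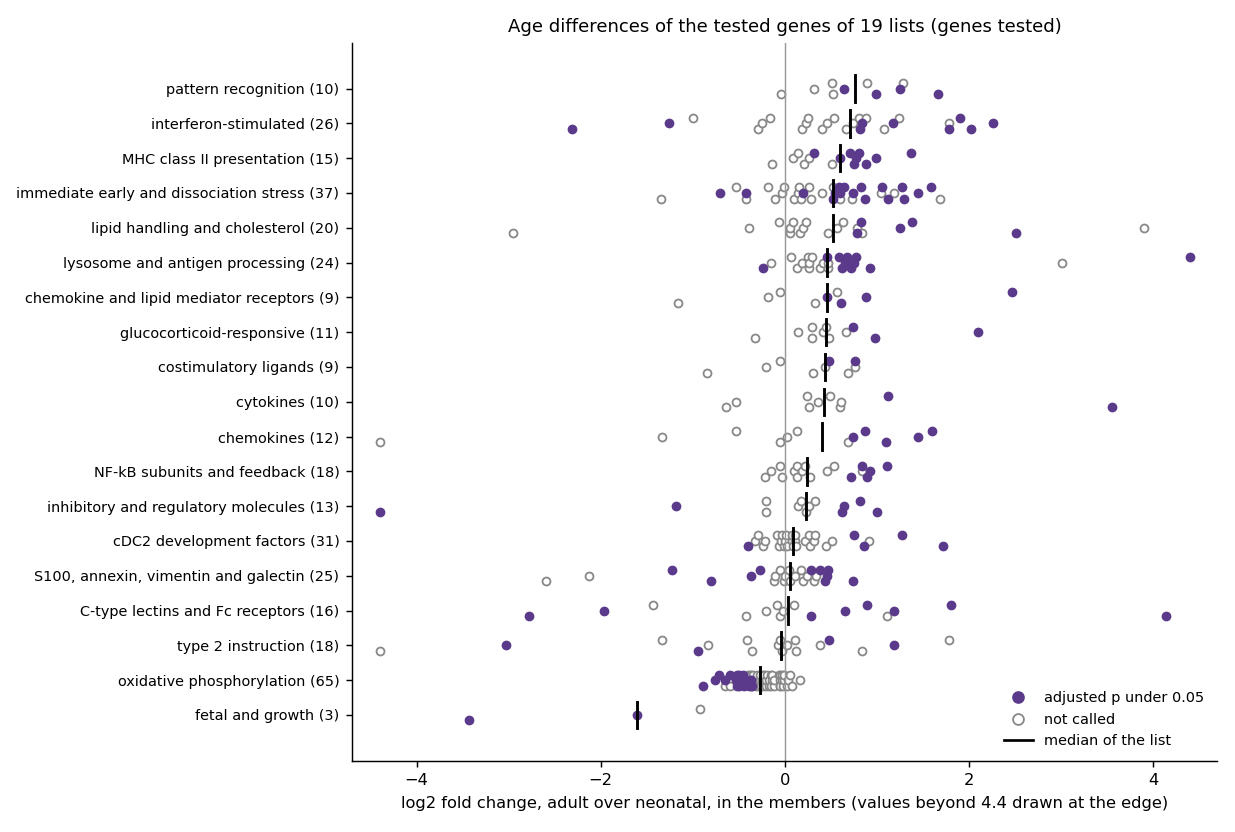
Log2 fold change, adult over neonatal, of each tested gene of 19 gene lists in the members, with filled points for genes with an adjusted p under 0.05 (edgeR), open points for the others and a bar at each list's median; values beyond the axis are drawn at its edge. MHC class II has 9 called genes right of 0, at a median of 0.59, and oxidative phosphorylation 20 left of it, at -0.26.

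The members were not uniform within a pool, as Lyz2 showed most clearly in adults. Lyz2, the lysozyme gene of monocytes, macrophages and neutrophils, stood at 6850 and 3870 CPM in adult and 754 and 711 CPM in neonatal members. Its log2 fold change of 3.02 had an adjusted p of 0.10 (edgeR). Over single cells its variance was 52.6 and 44.3 times its mean in adult and 15.2 and 6.81 times in neonatal members thinned to 2000 UMIs, against a median over 3139 genes of 0.914 for the lowest pool of each gene. In 20 (19.2%) and 8 (9.52%) adult members and in 2 (1.02%) and 0 neonatal members, the 0 allowing up to 2.68%, more than 100 of 10000 UMIs were Lyz2. Of those adult members 16 and 6 had no Mgl2 UMI, among 27 and 13 adult members without one. H2-Ab1 had a median of 51.0 and 91.8 per 10000 UMIs in the adult members without Mgl2, against 148 and 157 in those with it. In neonatal members the medians were 93.8 and 90.9 without Mgl2 and 87.8 and 83.8 with it. The adult members thus held a minority rich in Lyz2 and poor in class II and Mgl2.

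Other genes followed the same line in adult members. The adult members without an Mgl2 UMI held 593 and 162 CPM of Ly6c2, 702 and 361 CPM of F13a1 and 430.1 and 523 CPM of Fn1, against 1.77 and 3.67 CPM, 12.4 and 9.18 CPM and 72.4 and 71.6 CPM in adult members with one. In neonatal members without Mgl2 the same genes stood at 245 and 84.1 CPM, 90.8 and 56.1 CPM and 199.7 and 28.0 CPM. Ccl17 went with Mgl2, at 27.2 and 0 CPM in adult and 18.2 and 182 CPM in neonatal members without an Mgl2 UMI, against 604 and 1491 CPM in adult and 1722 and 3533 CPM in neonatal members with one. Markers of classical monocytes summed to 2287 and 1292 CPM in adult and to 951 and 916 CPM in neonatal members, and 5 of 8 tested ones rose in adult members, at a median log2 fold change of 2.15. Among members with an Mgl2 UMI they summed to 890 and 784 CPM in adult and 758 and 770 CPM in neonatal members. The markers of interstitial macrophages, without the C1q genes of the rule, summed to 759 and 362 CPM in adult and to 119 and 97.5 CPM in neonatal members, or 297 and 303 CPM in adult and 112 and 86.4 CPM in neonatal members with an Mgl2 UMI. Of 3 tested, 2 rose in adult members, Cd81 among them, and Folr2 was at 0 in all pools. When members with monocyte or macrophage markers were left out, 74 and 64 adult and 160 and 96 neonatal members remained, and 575 genes were called between ages, of which 496 were among the 676.

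The age test was also repeated on members with an Mgl2 UMI, a choice made after these values were seen. It called 619 genes, of which 511 were among the 676. The MHC class II list kept 9 higher in adult members and the oxidative phosphorylation list had 21 higher in neonatal members. Irf8, called over all members, had an adjusted p of 0.64, and of the cytokine genes Il1b was not called and Tnfsf13 was too low to test. Plac8, whose log2 fold change was 0.89 with an adjusted p of 0.59 over all members, was at -0.79 with an adjusted p of 0.0074 in these cells. Klra17 and Cd81 had log2 fold changes of 3.81 and 3.09 in these cells.

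**Figure D4:**
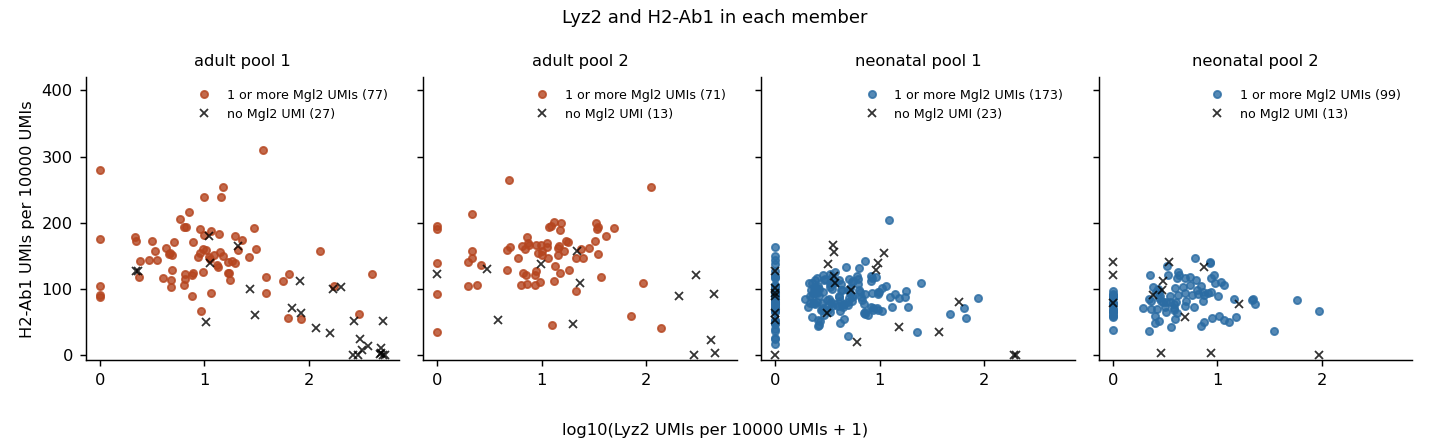
Each point is 1 member: Lyz2 on the x axis, as log10(UMIs per 10000 UMIs + 1), and H2-Ab1 UMIs per 10000 UMIs on the y axis, in 1 panel per pool, adult pools first, with the symbol showing whether the cell held an Mgl2 UMI. The 20 and 8 adult members with over 100 Lyz2 UMIs per 10000 lie at the right and mostly low, and 2 and 0 neonatal members do.

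The age differences of the members were set against those of 1054 Xcr1 Clec9a cells of the same pools by a test of the difference itself. It called 339 of 8164 genes (4.15%), 202 (2.47%) with a higher adult over neonatal ratio in the members and 137 (1.68%) with a lower one. Without neonatal pool 1, neonatal pool 2 or adult pool 1 it called 211, 203 or 186. Among MHC class II genes 6 of 15 had the higher ratio in the members and 1, H2-DMb2, the lower. H2-Aa was among the 6, and it stood at 10345 and 10286 CPM in adult and 8075 and 7944 CPM in neonatal Xcr1 Clec9a cells. The difference of its log2 age effects was 0.48 ± 0.06, and that of H2-Eb1 was 0.45 ± 0.06. Both genes were higher in the adult pools of both classes, with the larger ratio in the members. Cx3cr1, at 0 and 2.34 CPM in adult and 12.999 and 10.1 CPM in neonatal Xcr1 Clec9a cells, was higher in the adult pools of the members and in the neonatal pools of Xcr1 Clec9a cells, as was Fn1, although those cells held only 2 adult Cx3cr1 UMIs.

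Of 25 S100, annexin, vimentin and galectin genes, 11 had a lower adult over neonatal ratio in the members than in Xcr1 Clec9a cells and 1, Lgals1, a higher one. S100a6 stood at 1902 and 2058 CPM in adult and 2012 and 2202 CPM in neonatal members, against 836 and 1041 CPM in adult and 103 and 85.2 CPM in neonatal Xcr1 Clec9a cells (difference -3.28 ± 0.10). Vim, S100a4 and Crip1 behaved alike. Klrd1 stood at 184 and 191 CPM in adult and 0.743 and 3.96 CPM in neonatal Xcr1 Clec9a cells, so that its rise with age was larger there than in the members (-5.11 ± 0.33). At 7 days the members held more S100a6 and Klrd1 than Xcr1 Clec9a cells did. Clec4b1 differed in the same direction (-3.70 ± 0.37).

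Against 1071 Ccr7 Fscn1 cells the test called 949 of 7514 genes (12.6%), 484 (6.44%) with a higher and 465 (6.19%) with a lower adult over neonatal ratio in the members. Without neonatal pool 1, neonatal pool 2 or adult pool 1 it called 388, 548 or 632. Of 65 oxidative phosphorylation genes 34 had the lower ratio in the members and 0 the higher. Cox7c stood at 386 and 417 CPM in adult and 495 and 505 CPM in neonatal members, and at 556 and 549 CPM in adult and 437 and 428 CPM in neonatal Ccr7 Fscn1 cells (difference -0.61 ± 0.16, adjusted p 0.0047, edgeR). Against Xcr1 Clec9a cells 1 gene of that list, Cox4i1, had a higher ratio in the members and 0 a lower one. Of 37 immediate early genes 14 had the higher ratio in the members and 5 the lower. Jun stood at 249 and 238 CPM in adult and 298 and 281 CPM in neonatal Ccr7 Fscn1 cells, against 1202 and 1161 CPM in adult and 715 and 715 CPM in neonatal members. Of 16 MHC class II genes 0 had the higher ratio in the members and 6 the lower, H2-Ab1 among them with 2537 and 1981 CPM in adult and 669 and 668 CPM in neonatal Ccr7 Fscn1 cells.

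**Figure D5:**
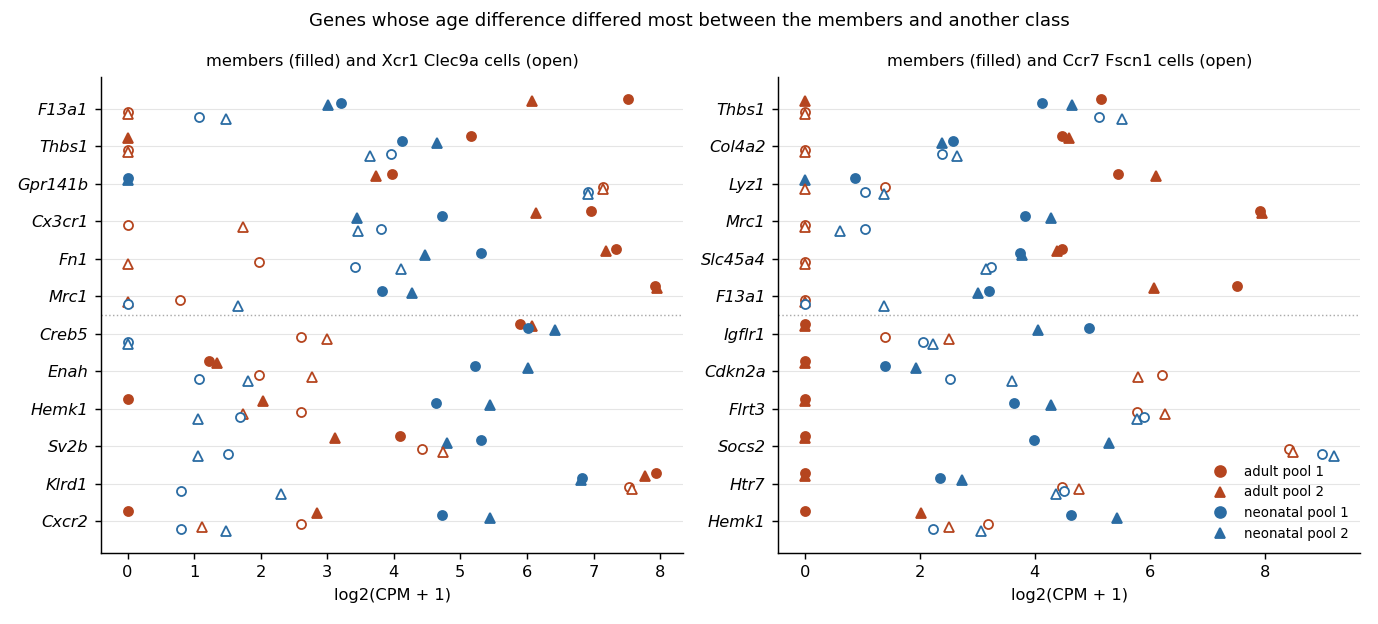
Level, as log2(CPM + 1), of the genes whose age difference differed most between the members (filled) and Xcr1 Clec9a cells (open, left panel) or Ccr7 Fscn1 cells (open, right panel), those with a higher adult over neonatal ratio in the members above the dotted line; each point is 1 pool. Klrd1 has 244 and 217 CPM in adult and 113 and 112 CPM in neonatal members but 184 and 191 CPM in adult and 0.743 and 3.96 CPM in neonatal Xcr1 Clec9a cells.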

How the data were processed

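Lung cells of 2 adult and 2 neonatal pools were deposited as 1 joint matrix with 14710 barcodes and 32285 genes, besides 2 hashtags. Its values are raw UMI counts as the authors deposited them, per the file headers; the submitters' processing notes name Cell Ranger 6.1.2, Seurat 4.2.0 and the mm10 build. The barcode suffix gave the pool, per the labels, and columns not used came to 0. GENCODE M21 matched 32235 gene identifiers and gave coordinates, counted from 1; upstream sequences came from RefSeq on GRCm38.p6. The cells and the gene lists were chosen with earlier results of these data known. Of 707 list entries, 5 were not analysed here.

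UMIs of members were summed per pool, filtered with filterByExpr, scaled by TMM and tested with edgeR 4.0.16 (glmQLFit with robust=TRUE, glmQLFTest; R 4.3.3), with Benjamini-Hochberg adjustment over all genes tested and 0.05 as the threshold. Differences of age effects between classes used 8 sums with pool as a block. Genes of the rule and mitochondrial genes stayed in the totals and out of the tests. The tests were tested on simulated data with known changes. Shares of cells were tested by exact two-sided permutation over 4 pools, after thinning cells to 2000 UMIs where stated. Scrublet (scanpy 1.11.5) marked doublets, which were kept. Alternatives were DESeq2 1.42.0, other low-count filters (none, or at least 50 UMIs), other lectin limits (2 or 6 UMIs), members without cDC1, monocyte or macrophage markers, without doublets or with Mgl2, thinned cells, male cells, and leaving out each pool.

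The genes named were the rule's genes and the 12 largest called changes in each direction with at least 20 CPM and no overlap of the pools. Up to 4 genes of each list by smallest p and 10 genes leading the members over all other kept barcodes were named too. So were the 6 largest differences of age effects in each direction per class compared. The other genes were named after their values were seen, as the remaining called genes of a list or as cell type markers. For genes with 1 to 3 UMIs at an age the text gives a raw ratio with an exact 95% counting interval, and where it held 0, a bound from 3 UMIs; both cover counting error only. Folds against male neonatal cells are log2 ratios of CPM with 10 added to each; the other log2 folds are edgeR's own.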

Additional observations from a re-analysis of the deposited data

Results flagged for a closer look

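The age difference of the genes below differed between the members and another class of DC by a test of the difference itself (edgeR, adjusted p under 0.05), and they were the largest such differences in each direction. Values are differences of log2 age effects, members minus the other class. Where a class had 0 UMIs at an age, the fitted value depends on the prior count and is no bound.

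Against Xcr1 Clec9a cells the difference was 8.39 for F13a1, the factor XIII subunit of monocytes and macrophages, 7.50 for Thbs1, 6.98 for Gpr141b, 6.14 for Cx3cr1, 5.17 for Fn1 and 5.13 for Mrc1. F13a1 stood at 181 and 66.2 CPM in adult and 8.23 and 7.07 CPM in neonatal members, and 23 of 104 and 7 of 84 adult members held a UMI. As given above, F13a1 and Fn1 were far higher in adult members without an Mgl2 UMI than in those with one. Against this class the call of Thbs1 was lost or turned in 5 other settings and those of F13a1 and Mrc1 in 2 each. Thbs1 stood at 34.7 and 0 CPM in adult and 16.5 and 24.0 CPM in neonatal members, and its adult UMIs came from 4 members of adult pool 1. Gpr141b was at 14.7 and 12.3 CPM in adult and at 0 in neonatal members, and at 141 and 140.4 CPM in adult and 120.0 and 119 CPM in neonatal Xcr1 Clec9a cells.

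In the other direction the difference was -6.20 for Creb5, -6.12 for Enah, -5.53 for Hemk1, -5.17 for Sv2b, -5.11 for Klrd1 and -4.86 for Cxcr2. Creb5 stood at 58.7 and 66.2 CPM in adult and 63.4 and 84.8 CPM in neonatal members, against 5.10 and 7.02 CPM in adult and 0 in neonatal Xcr1 Clec9a cells. Sv2b ran in opposite directions, with 16.0 and 7.70 CPM in adult and 38.7 and 26.9 CPM in neonatal members, against 20.4 and 25.7 CPM in adult and 1.86 and 1.08 CPM in neonatal Xcr1 Clec9a cells.

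Against Ccr7 Fscn1 cells the difference was 8.32 for Thbs1, 7.75 for Col4a2, 7.12 for Lyz1, 7.08 for Mrc1, 7.04 for Slc45a4 and 7.03 for F13a1. It was -7.33 for Igflr1, -7.29 for Cdkn2a, -7.00 for Flrt3, -6.94 for Socs2, -5.44 for Htr7 and -4.56 for Hemk1. Against this class the call of Htr7 was lost in 7 other settings and those of F13a1 and Thbs1 in 5 each. Socs2, a feedback inhibitor of cytokine signalling, stood at 0 in adult and 14.8 and 38.2 CPM in neonatal members, against 341 and 361 CPM in adult and 511 and 589 CPM in neonatal Ccr7 Fscn1 cells. Cdkn2a stood at 0 in adult and 1.65 and 2.83 CPM in neonatal members, against 73.3 and 54.4 CPM in adult and 4.77 and 11.1 CPM in neonatal Ccr7 Fscn1 cells.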

How the results depend on the processing

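With 2 pools per age, 84 to 196 members per pool and sex, channel and age confounded, the counts of called genes are limited by the spread between few sums. Against 676 genes called between ages, DESeq2's Wald test called 249 and sums thinned to 2000 UMIs called 227, with fewer genes tested when thinned. Leaving out 1 pool gave 349 to 603. Against 339 and 949 differences of age effects to Xcr1 Clec9a cells and Ccr7 Fscn1 cells, the Wald test called 50 and 129, and leaving out 1 pool gave 186 to 364 and 388 to 685. The other settings gave 575 to 830 genes between ages. The difference in share was 13.3 points among DC and, with all barcodes, 0.446 to 2.31 points without 1 pool. The difference in members with a Clec4b1 UMI was 16.1 points without thinning. Leaving out a pool leaves 1 sum of an age, assumed to vary like the others.

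Thbs1, at 8.41 without adult replicate 2, turned to a difference of -0.55 against Xcr1 Clec9a cells with a limit of 6 lectin UMIs, to -0.55 among members with Mgl2 and to -0.42 without adult replicate 1; in these settings its adult UMIs were 0 in both classes, so that the fitted value carries no information. When the neonatal sum was restricted to 10 male members of neonatal pool 2, 122 of 133 called genes with enough UMIs kept their direction. Those that turned were Slamf9 at -0.53, Tagln2 at -0.18, Jund at -0.0068, Cox7b at 0.033, Cd180 at -0.17, Cd48 at -0.42, Pirb at -0.47, Dusp1 at -0.088, Tsc22d3 at -0.077, Vim at -0.050 and Cox6c at 0.43, from 61665 UMIs; the cause was not tested. For genes that kept their direction against the male members, sizes cannot be compared directly. The main value is edgeR's own, and the male value is a ratio with 10 CPM added to each side. These were 3.18 and 0.25 for Klra17, 0.75 and 0.17 for H2-DMb1, and 2.10 and 3.18 for Txnip. The male sum held only 3 UMIs of Klra17 and 2 of Txnip. Of 1655 repeats of single values over all settings, 1471 kept direction and side of the threshold, 174 only the direction, and 10 turned.

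The pool numbers pair nothing in the labels, and pools of the same number deviated with a correlation of 0.0267. With the replicate block 872 genes were called between ages; without it 299 and 859 of the differences of age effects were called.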

Other observations

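Genes known from cDC1, whose defining genes Xcr1 and Clec9a were kept at 0 by the choice of cells, were not even between the ages. Of 10 tested, 4 rose in neonatal members (edgeR) and 2 in adult members. Over all tested genes 3.37% rose in neonatal and 6.75% in adult members. Naaa, a lysosomal amidase, stood at 247 and 303 CPM in adult and 517 and 609 CPM in neonatal members. Wdfy4, needed for cross-presentation in cDC1, stood at 232 and 211 CPM in adult and 345 and 384 CPM in neonatal members, and Cd24a at 117 and 185 CPM in adult and 285 and 283 CPM in neonatal members. Cadm1, an adhesion molecule, went the other way, with 30.7 and 18.5 CPM in adult and 4.94 and 2.83 CPM in neonatal members. Irf8, the remaining one that rose in adult members, was not called among those with an Mgl2 UMI.

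Genes of the cDC2 marker list rose in adult members in 6 of 15 cases and in neonatal members in 1. The paired membrane protein genes Tmem176a and Tmem176b had log2 fold changes of 0.96 ± 0.10 and 0.78 ± 0.08. Of the genes that led the members over all other kept barcodes, Gfra2, a receptor of the GDNF family, was lower in adult members (-0.94 ± 0.18). Slamf9 was higher (0.74 ± 0.15) but turned to -0.53 against the male neonatal members alone. Epcam, an adhesion molecule that some DC carry, stood at 62.7 and 75.4 CPM in adult and 21.4 and 33.9 CPM in neonatal members.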
